A study of Mus musculus with 2 samples.

Results

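RNA of 5 genes that transport, make or use vitamin C was measured in the adrenal gland of mice: the ascorbate transporters Slc23a1 and Slc23a2, the synthesis genes Gulo and Rgn, and the electron carrier Cyb561. They were taken by symbol from GENCODE M21, and all 5 were found among the 55536 annotated genes of the tables, of which 22015 are nuclear protein-coding genes. The samples were 2 libraries of total RNA from the whole adrenal gland of adult male B6CASTF1/J mice, the first-generation cross of C57BL/6J and CAST/EiJ, aged 8 to 10 months. The labels form 1 group, name no treatment, and give replicate 2 as animal 4 and replicate 1 as animal 2, although both cite the same donor record. Each library started from 300 ng of RNA with ERCC spike-in RNAs added. The depth was 33987434 counts on annotated genes for replicate 2 and 29994901 for replicate 1.

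Vitamin C, or ascorbate, is an electron donor that many oxidising enzymes need, and the adrenal gland is among the tissues richest in it. The SLC23 transporters carry ascorbate into cells together with sodium: SVCT1, encoded by Slc23a1, mainly in epithelia of intestine, kidney and liver, and SVCT2, encoded by Slc23a2, in many other tissues. Mice make ascorbate from glucose, chiefly in the liver, by a route in which Rgn acts as gluconolactonase and Gulo, L-gulonolactone oxidase, takes the last step; humans lack a working copy of Gulo. Cytochrome b561, encoded by Cyb561, passes electrons from ascorbate in the cytosol across the membrane of chromaffin granules, where dopamine beta-hydroxylase uses ascorbate to make noradrenaline.

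The promoter of Slc23a2 is shown because Slc23a2 carried nearly all SLC23 RNA in both glands, and it was the only member of the 5 with a promoter entry in the RefSeq table used here. RefSeq (GRCm38.p6) gives 2 starts for the gene, at positions 132145320 and 132145108 of chromosome 2 on the minus strand. The principal transcript of GENCODE M21 begins at the inner of these. The 250 bases before the outer start, chr2:132145321-132145570 on the minus strand, hold no base of an annotated Slc23a2 transcript and read as follows, 5′ to 3′, with the CCAAT matches in capitals.
Slc23a2: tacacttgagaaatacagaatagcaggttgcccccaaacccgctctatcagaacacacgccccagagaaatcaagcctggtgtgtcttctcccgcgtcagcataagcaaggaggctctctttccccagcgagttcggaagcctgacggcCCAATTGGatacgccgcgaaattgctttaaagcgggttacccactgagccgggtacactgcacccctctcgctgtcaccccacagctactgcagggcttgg
Both strands were searched for the CCAAT box (CCAAT), the TATA box (TATAAA) and the GC box (GGGCGG). This window held 2 matches to the CCAAT box, 1 on each strand and overlapping in CCAATTGG, and none to the TATA box or the GC box. The 250 bases before the inner start held 6 matches to the GC box, counting both strands and overlaps, and none to the TATA or CCAAT box. Of 32851 RefSeq promoter windows of this length, 33.9% held a CCAAT box, 12.4% a TATA box and 32.7% a GC box. The inner window was 78.8% G or C with 31 CG dinucleotides, and the outer window 56% with 13, beside medians of 52.4% and 6 over all windows. The 2 windows are not separate. The inner window reaches past the outer start, so part of it lies downstream of that start and part overlaps the printed window. These matches describe the letters of the windows and say nothing of which factor binds there.

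The 5 genes ranged from well expressed to not detected, in the same order in both glands. Levels are TPM as deposited in the RSEM-format tables, which are scaled to transcript length and so can be set side by side between genes. Cyb561 stood highest at 119.8 TPM in replicate 2 and 122 TPM in replicate 1, followed by Slc23a2, Gulo and Rgn, and Slc23a1 was listed at 0 in both. No gene's higher library reached the lower library of the gene above it, so no neighbours in this order overlapped. A level of 1 TPM in both libraries was taken as detected, which held for 3 of the 5 genes: Cyb561, Slc23a2 and Gulo. Rgn passed this level in replicate 2 only. Of all 55536 annotated genes, 14731 reached 1 TPM in replicate 2 and 14544 in replicate 1. Rgn at 1.39 TPM ranked 12375 among the 22015 nuclear coding genes in replicate 2, so most coding genes reached 1 TPM there. The kallisto-format tables, a second deposited quantification of the same libraries, gave the same order.

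**Figure D1:**
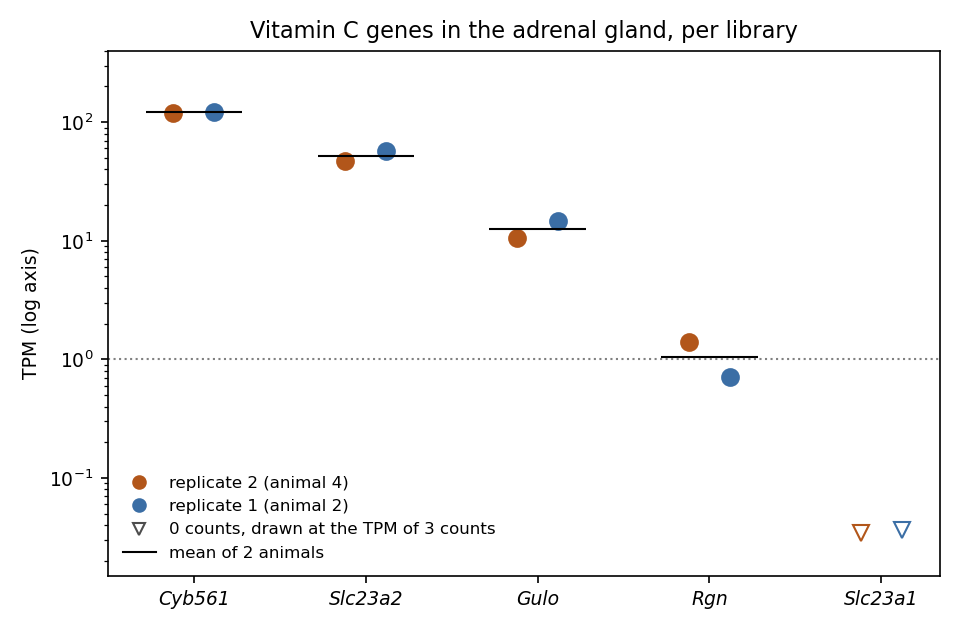
TPM of the 5 genes on a log axis, with 1 point for each library (replicate 2 left, replicate 1 right), a bar at the mean of both animals and a dotted line at 1 TPM. Open triangles mark Slc23a1, listed at 0, at the TPM that 3 counts would have had, 0.0341 in replicate 2 and 0.0366 in replicate 1; the other genes run from Cyb561 near 120 TPM to Rgn near 1 TPM without overlap between neighbours.

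Of the transporter genes, Slc23a2 was well expressed in both glands and Slc23a1 was not detected. Slc23a2 (ENSMUSG00000027340.15, chromosome 2, 132052496 to 132145108, minus strand, mm10) had 6833 counts and 46.6 TPM in replicate 2, and 7855 counts and 57.0 TPM in replicate 1. Its mean level was 51.8 ± 7.39 TPM (SD, n = 2 animals), and it ranked 1665 in replicate 2 and 1146 in replicate 1 among nuclear coding genes. Its main transcript alone had 35.1 TPM in replicate 2 and 43.5 TPM in replicate 1, and the rest came from shorter models with few counts. The kallisto-format tables gave the gene 36.7 TPM in replicate 2 and 40.6 TPM in replicate 1. Slc23a1 (ENSMUSG00000024354.13, chromosome 18, 35614604 to 35627244, minus strand) had 0 counts in either library. A count of 0 allows up to 3 counts, which for its longest transcript come to 0.0341 TPM in replicate 2 and 0.0366 TPM in replicate 1. These limits cover counting error only and hold for the RSEM-format counts. The kallisto-format tables gave Slc23a1 0.0222 TPM in replicate 2 and 0.0688 TPM in replicate 1. Its deposited credibility bounds were 0.020 to 0.397 TPM in replicate 2 and 0.0195 to 0.425 TPM in replicate 1. These bounds lie above 0 although the count and its deposited posterior standard deviation were 0 in both libraries. They therefore rest on no counted reads and do not measure a level of Slc23a1.

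The other SLC23 genes were near the limit as well. Slc23a3 had 9 counts (0.15 TPM) in replicate 2 and 7 counts (0.13 TPM) in replicate 1. Slc23a4, known as a nucleobase transporter in the rat, had 15 counts (0.26 TPM) in replicate 2 and 6 counts (0.11 TPM) in replicate 1. Slc23a2 thus held 99.1% of the summed TPM of the 4 SLC23 genes in replicate 2 and 99.6% in replicate 1 (99.4 ± 0.321%, SD, n = 2). Sequence shared between genes was sought in 31-base words of transcripts in their own direction, without reverse complements. By this measure Slc23a1 was the only member with sequence shared with other genes. Of its 3256 distinct words, 169 (5.19%) also occur in transcripts of 851 other genes. Slc23a1 overlaps Paip2 on the opposite strand by 2584 bases, which this measure does not cover. Paip2, a regulator of poly(A)-binding protein, stood at 92.1 TPM in replicate 2 and 89.5 TPM in replicate 1.

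Gulo RNA was present in both glands, well above that of Rgn. Gulo (ENSMUSG00000034450.8, chromosome 14, 65986786 to 66009207, minus strand) has 1 annotated transcript of 12 exons with 1320 coding bases. It had 684 counts and 10.5 TPM in replicate 2, and 897 counts and 14.8 TPM in replicate 1, a mean of 12.7 ± 3.03 TPM (SD, n = 2). In the kallisto-format tables it stood at 9.48 TPM in replicate 2 and 12.8 TPM in replicate 1. None of its 2233 distinct 31-base words occurs in the same direction in a transcript of another annotated gene. The deposited posterior standard deviation of the Gulo count was 0 in both libraries. The neighbouring gene Clu, which encodes clusterin, reads toward Gulo from the opposite strand with a gap of 5238 bases and stood at 142 TPM in replicate 2 and 134 TPM in replicate 1.

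Rgn was the lowest of the 4 genes with reads. Rgn (ENSMUSG00000023070.6, chromosome X, 20549787 to 20562089, plus strand) had 63 counts in replicate 2 (exact Poisson 95% interval 48.4 to 80.6) and 30 counts in replicate 1 (20.2 to 42.8). These counts correspond to 1.39 TPM in replicate 2 and 0.71 TPM in replicate 1, a mean of 1.05 ± 0.481 TPM. Gulo exceeded Rgn 7.56-fold by TPM in replicate 2 and 20.8-fold in replicate 1, a ratio chosen after the values were seen.

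Hepatocyte markers were low in both libraries. Of 8 genes in this list, 4 reached 1 TPM in both, none was at 0, and their TPM summed to 17.0 in replicate 2 and 15.1 in replicate 1. Its leading genes were Alb, which encodes serum albumin, at 8.4 TPM in replicate 2 and 7.38 TPM in replicate 1, and Ahsg, a secreted glycoprotein of liver, at 3.13 TPM in replicate 2 and 2.58 TPM in replicate 1. Gulo exceeded Alb 1.25-fold in replicate 2 and 2.01-fold in replicate 1, a ratio also chosen after the values were seen. Between the glands the fold of Alb, replicate 2 over replicate 1, was 1.04 (0.911 to 1.19), against 0.650 (0.588 to 0.719) for Gulo; both are ratios of scaled counts with 95% counting intervals. What part RNA of liver cells has in the Gulo reads was not tested. Kidney tubule markers summed to 1.89 TPM in replicate 2 and 0.50 TPM in replicate 1. Of these 8 genes none was detected, and 2 in replicate 2 and 5 in replicate 1 were at 0, among them Umod and Slc12a1, which mark the loop of Henle, in both. The leading ones were Aqp2, a water channel, at 0.91 TPM in replicate 2 and 0.38 TPM in replicate 1, and Miox, an inositol oxygenase, at 0.52 TPM in replicate 2 and 0.11 TPM in replicate 1.

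Besides Rgn, 4 enzymes that precede gulonolactone in the route were listed, and these 4 were all detected, at levels above Gulo. They are called the enzymes before gulonolactone below and do not cover every step. Akr1a1, an aldehyde reductase that makes gulonate from glucuronate, stood at 343 TPM in replicate 2 and 346 TPM in replicate 1. Akr1b3, aldose reductase, had 110.3 TPM in replicate 2 and 136 TPM in replicate 1, on counts the authors estimated with a posterior SD of 28.2 in replicate 2 and 31.9 in replicate 1. Ugdh, UDP-glucose dehydrogenase, had 31.5 TPM in replicate 2 and 26 TPM in replicate 1. The fourth of these genes, Ugp2, which makes UDP-glucose, had 23.2 TPM in replicate 2 and 15.4 TPM in replicate 1. All 4 also serve routes other than ascorbate synthesis. Akr1a1 exceeded Gulo 32.6-fold by TPM in replicate 2 and 23.4-fold in replicate 1, a ratio chosen after the values were seen.

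Cyb561 was the most abundant member and the main gene of its family. Cyb561 (ENSMUSG00000019590.16, chromosome 11, 105933702 to 105953336, minus strand) had 8171 counts and 119.8 TPM in replicate 2, and 7713 counts and 122 TPM in replicate 1. Its mean of 121 ± 1.87 TPM (SD, n = 2) had the smallest spread relative to its level of the 4 genes with reads, and it ranked 436 in replicate 2 and 390 in replicate 1 among nuclear coding genes. It made up 82.5% of the summed TPM of 6 cytochrome b561 family genes in replicate 2 and 83.6% in replicate 1. The next in that family were Cyb561a3, a lysosomal relative, at 9.01 TPM in replicate 2 and 7.24 TPM in replicate 1, then Cyb561d2 at 7.86 TPM in replicate 2 and 7.69 TPM in replicate 1. Cyb561d1 stood at 5.11 TPM in replicate 2 and 4.00 TPM in replicate 1, and Frrs1, a ferric reductase, at 3.23 TPM in replicate 2 and 4.99 TPM in replicate 1. Cybrd1, the duodenal ferric reductase, had 0.27 TPM in replicate 2 and 0.15 TPM in replicate 1, so 4 of the 5 relatives were detected.

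The granule enzymes that need ascorbate stood in the same range as Cyb561 or above. Dbh, dopamine beta-hydroxylase, had 195 TPM in replicate 2 and 244 TPM in replicate 1. Pam, which amidates the ends of peptide hormones, had 201 TPM in replicate 2 and 171 TPM in replicate 1. The ratio of Dbh to Cyb561 was 1.63 in replicate 2 and 1.99 in replicate 1, again chosen after the values were seen. Ascorbate recycling in the cytosol and at the mitochondrial surface was represented by Cyb5b, the outer-membrane cytochrome b5, at 160 TPM in replicate 2 and 163 TPM in replicate 1. Its reductase Cyb5r3 stood at 122 TPM in replicate 2 and 127 TPM in replicate 1. The thioredoxin reductase Txnrd1, which can reduce dehydroascorbate, stood at 28.9 TPM in replicate 2 and 30.5 TPM in replicate 1. Of 6 recycling genes 5 were detected in both libraries; the exception, Gsto2, a dehydroascorbate reductase, had 1.26 TPM in replicate 2 and 0.60 TPM in replicate 1.

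**Figure D2:**
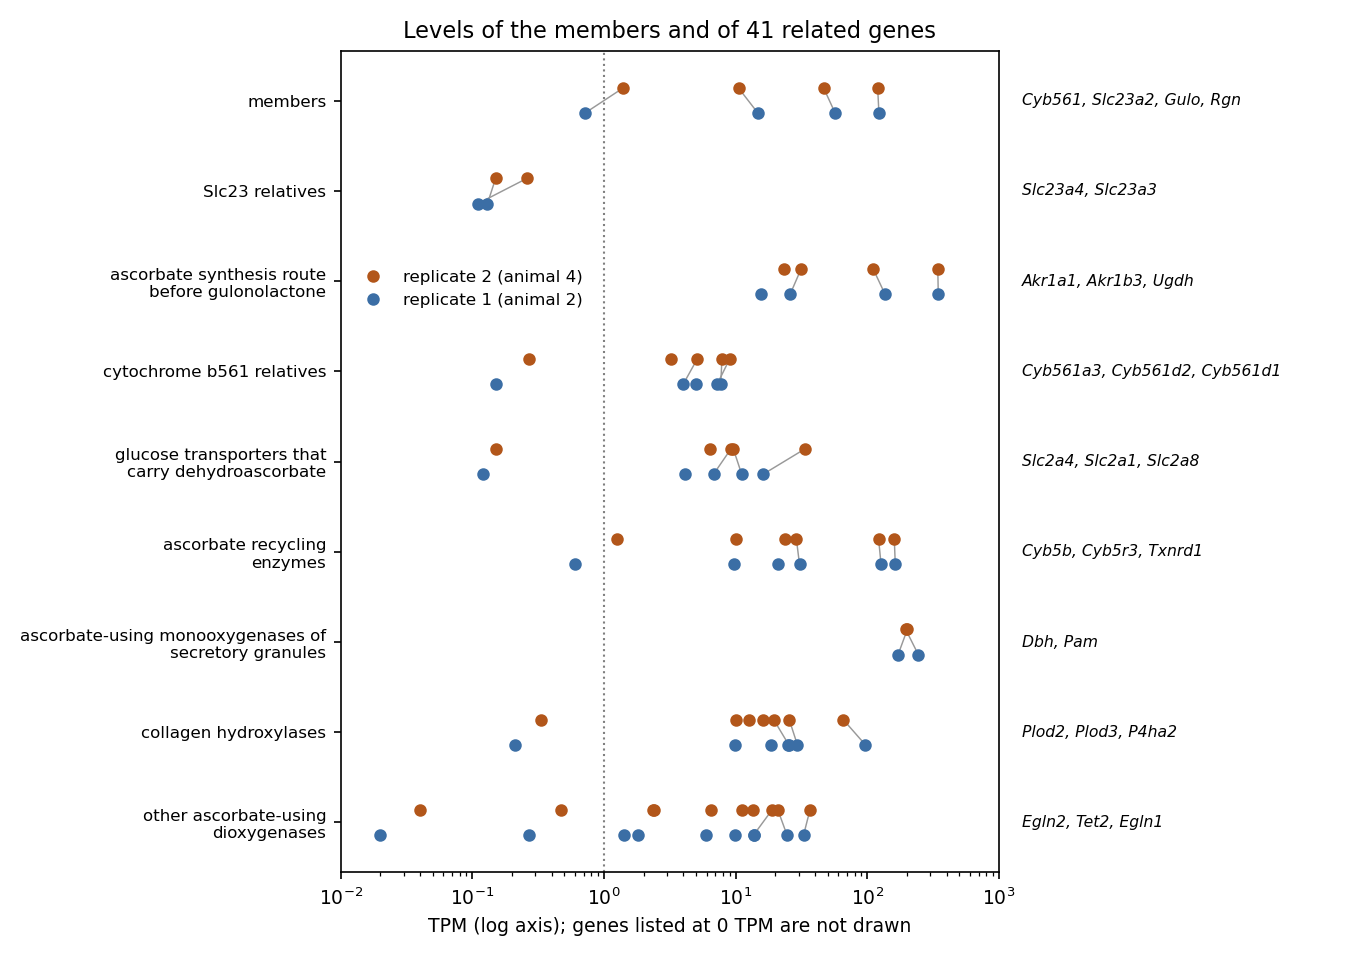
TPM (log axis) of the 4 members with reads and of the 41 related genes, by list, with replicate 2 in orange above replicate 1 in blue and the most abundant genes of each list named at the right. Grey lines join the named genes' points, the dotted line marks 1 TPM, and Cyb561, Akr1a1, Akr1b3, Dbh, Pam, Cyb5b and Cyb5r3 lie above 100 TPM in both libraries, while both SLC23 relatives lie below 1 TPM.

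Cells also take up oxidised ascorbate through glucose transporters, and enzymes outside the granule use ascorbate to keep their iron reduced. Of 5 glucose transporters that carry dehydroascorbate, 4 were detected. Slc2a4, the insulin-responsive transporter of fat and muscle, had 33.5 TPM in replicate 2 and 16.2 TPM in replicate 1. Slc2a1, the transporter of most cell types, had 9.59 TPM in replicate 2 and 11.1 TPM in replicate 1, and Slc2a8, an intracellular transporter, 9.19 TPM in replicate 2 and 6.78 TPM in replicate 1. Of 7 collagen hydroxylases 6 were detected, led by the lysyl hydroxylase Plod2 at 65.6 TPM in replicate 2 and 96.6 TPM in replicate 1. Plod3, another lysyl hydroxylase, had 25.5 TPM in replicate 2 and 29.4 TPM in replicate 1. The prolyl hydroxylase subunit P4ha2 had 19.4 TPM in replicate 2 and 25.3 TPM in replicate 1. Of 10 other ascorbate-using dioxygenases 8 were detected. Egln2, a prolyl hydroxylase of the hypoxia-inducible factor, had 36.7 TPM in replicate 2 and 32.8 TPM in replicate 1, and its relative Egln1 18.9 TPM in replicate 2 and 13.7 TPM in replicate 1. Tet2, which oxidises methylated cytosine, had 20.9 TPM in replicate 2 and 24.5 TPM in replicate 1. Over all 8 lists, 33 of the 41 genes were detected. Of all 55536 annotated genes, 14731 reached 1 TPM in replicate 2 and 14544 in replicate 1. These totals are per library and include noncoding genes, so they are not a like background for the 33. Among the 22015 nuclear coding genes, most reached 1 TPM in replicate 2, where Rgn at 1.39 TPM ranked 12375.

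One transcript carried most of the RNA of Cyb561 and of Slc23a2. Cyb561 has 7 annotated transcripts, 6 of them coding. Cyb561-201 (6 exons, 750 coding bases) took 79.6% of the gene's TPM in replicate 2 and 78.4% in replicate 1. Cyb561-204, a shorter model whose mRNA end was not found by its annotators, took 15.7% in replicate 2 and 16.7% in replicate 1. By counts, which do not correct for length, these shares were 92.8% and 5.99% in replicate 2, and 92.1% and 6.45% in replicate 1. The kallisto-format tables gave Cyb561-201 a smaller share of TPM, 69.7% in replicate 2 and 66.5% in replicate 1, and Cyb561-204 17.6% in replicate 2 and 18.5% in replicate 1. In the RSEM-format tables the remaining 5 transcripts each took at most 3.24% in either library, and Cyb561-205 and Cyb561-207 were listed at 0. A gene of unsettled type on the opposite strand, Gm9910, overlaps Cyb561 by 1550 bases and had 83 counts in replicate 2 and 59 counts in replicate 1; whether counting used strand is not stated.

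Slc23a2 also has 7 annotated transcripts, of which 2 are coding. Slc23a2-201 (16 exons, 1944 coding bases) took 75.4% of the gene's TPM in replicate 2 and 76.3% in replicate 1, and 96.9% of its counts in replicate 2 and 97.2% in replicate 1. The second coding model, Slc23a2-203, is 379 bases long and incomplete. It took 10.8% of TPM in replicate 2 and 13.97% in replicate 1 on 42.2 counts in replicate 2 and 62.3 counts in replicate 1, while kallisto listed it at 0 in replicate 2 and gave it 6.81% in replicate 1. Slc23a2-204, a noncoding model, took 2.12% in replicate 2, and 13.4% there in the kallisto-format tables, and was listed at 0 in replicate 1 in both kinds of table. The shares of these short models rested on few counts and differed between the quantifiers. The antisense gene Gm14051, which overlaps Slc23a2 by 576 bases, had 1 count in replicate 2 and 0 in replicate 1. Gulo and Rgn have 1 annotated transcript each.

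**Figure D3:**
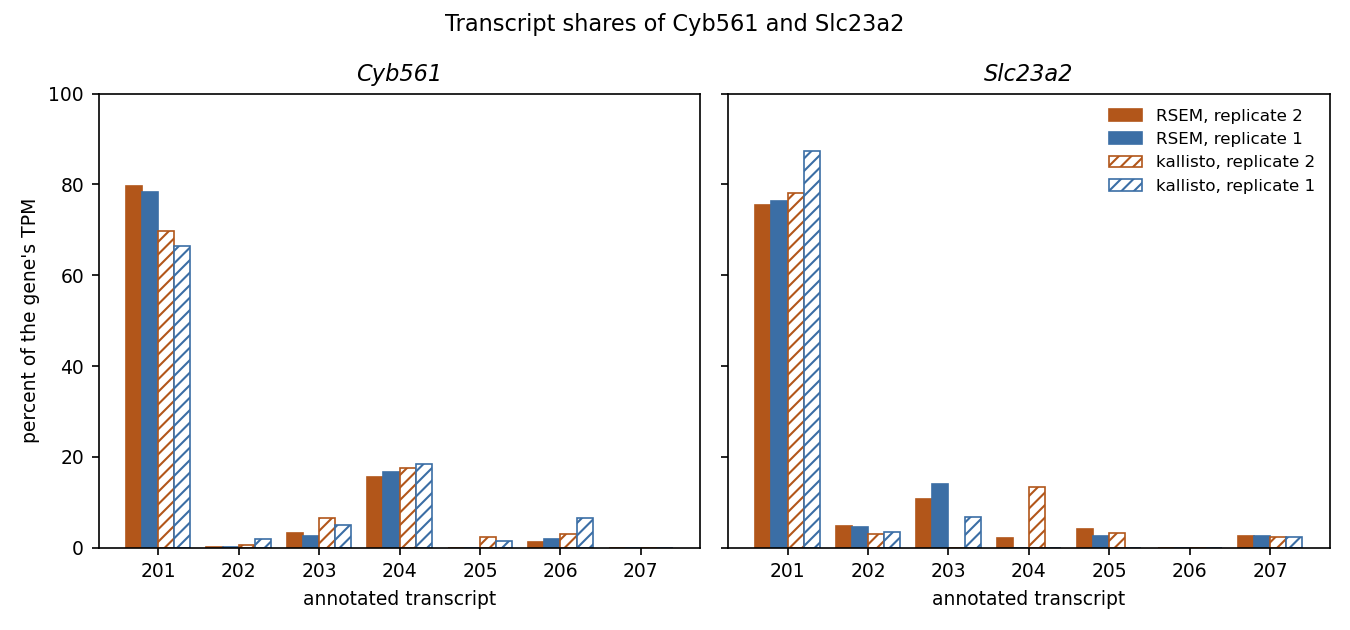
Percent of the gene's TPM taken by each annotated transcript of Cyb561 (left) and Slc23a2 (right), with filled bars for the RSEM-format tables and hatched bars for the kallisto-format tables, replicate 2 in orange and replicate 1 in blue. Transcript 201 holds between 66.5% and 87.3% in every bar, and kallisto lists transcript 203 of Slc23a2 at 0 in replicate 2.

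The 2 glands were then set against each other, as replicate 2 over replicate 1, with 1 animal on each side and no test. Folds are ratios of TMM-scaled counts with exact conditional binomial 95% intervals that cover counting error only. A gene was counted as differing at 2-fold or more with an interval excluding equality, and only nuclear genes averaging 100 counts or more were compared. Of the 12853 genes compared, 307 were higher in replicate 2 (2.39%) and 148 lower (1.15%). Of the 5 vitamin C genes 3 could be compared, and 0 of them were higher and 0 lower by this rule; Rgn and Slc23a1 had too few counts. Log2 ratios below are of CPM (counts scaled to library size) plus 1, and their median over all genes compared was 0.0006.

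All 3 members compared had lower scaled counts in replicate 2, under each scaling tried, and each differed by less than 2-fold. Slc23a2 had 198 CPM in replicate 2 and 266 CPM in replicate 1, a fold of 0.742 (0.718 to 0.766) and a log2 ratio of -0.43, and 5.98% of genes compared had a ratio as low. Gulo had a fold of 0.650 (0.588 to 0.719) and a log2 ratio of -0.60, as low as that of 2.995% of genes. Cyb561 had 236 CPM in replicate 2 and 262 CPM in replicate 1, a fold of 0.903 (0.875 to 0.932). Its log2 ratio of -0.15 lay just above the 25th percentile of the genes compared (25.9% as low). Rgn, outside the comparison for its few counts, had a fold of 1.79 (1.14 to 2.87) and a log2 ratio of 0.48. Its few counts make the log2 ratio smaller than the fold would give, since 1 CPM was added.

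Of the 41 related genes 33 could be compared, with 0 higher and 1 lower in replicate 2 (2.39% and 1.15% over all genes). Their median log2 ratio was -0.02, with 15 genes above 0 and 18 below, against 6446 above and 6407 below over all genes. With scaling to spike-ins the median was 0.06, with 19 genes above 0 and 14 below, against 8184 above and 4669 below over all genes. The gene counted as lower was P4ha1, a catalytic subunit of prolyl 4-hydroxylase, at 12.7 TPM in replicate 2 and 25.1 TPM in replicate 1 (0.467-fold, 0.434 to 0.503). All 6 collagen hydroxylases compared had ratios below 0, with a median of -0.42, except that with scaling to spike-ins P3h1 lay at 0.0035 and the median at -0.34. Slc2a4 lay just under the limit on the other side (1.92-fold, 1.78 to 2.06). Among granule enzymes Dbh had a fold of 0.732 (0.716 to 0.748) and Pam 1.07 (1.05 to 1.10). The median log2 ratio was -0.15 for the recycling enzymes, 0.12 for the glucose transporters, 0.11 for the other dioxygenases and 0.04 for the b561 relatives. For the enzymes before gulonolactone the median was -0.02, which became 0.03 with scaling to totals, 0.06 with scaling to spike-ins and 0.02 with kallisto-format counts. Ugp2 had the highest fold of these (1.36, 1.26 to 1.48) and Akr1b3 the lowest (0.803, 0.766 to 0.841).

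**Figure D4:**
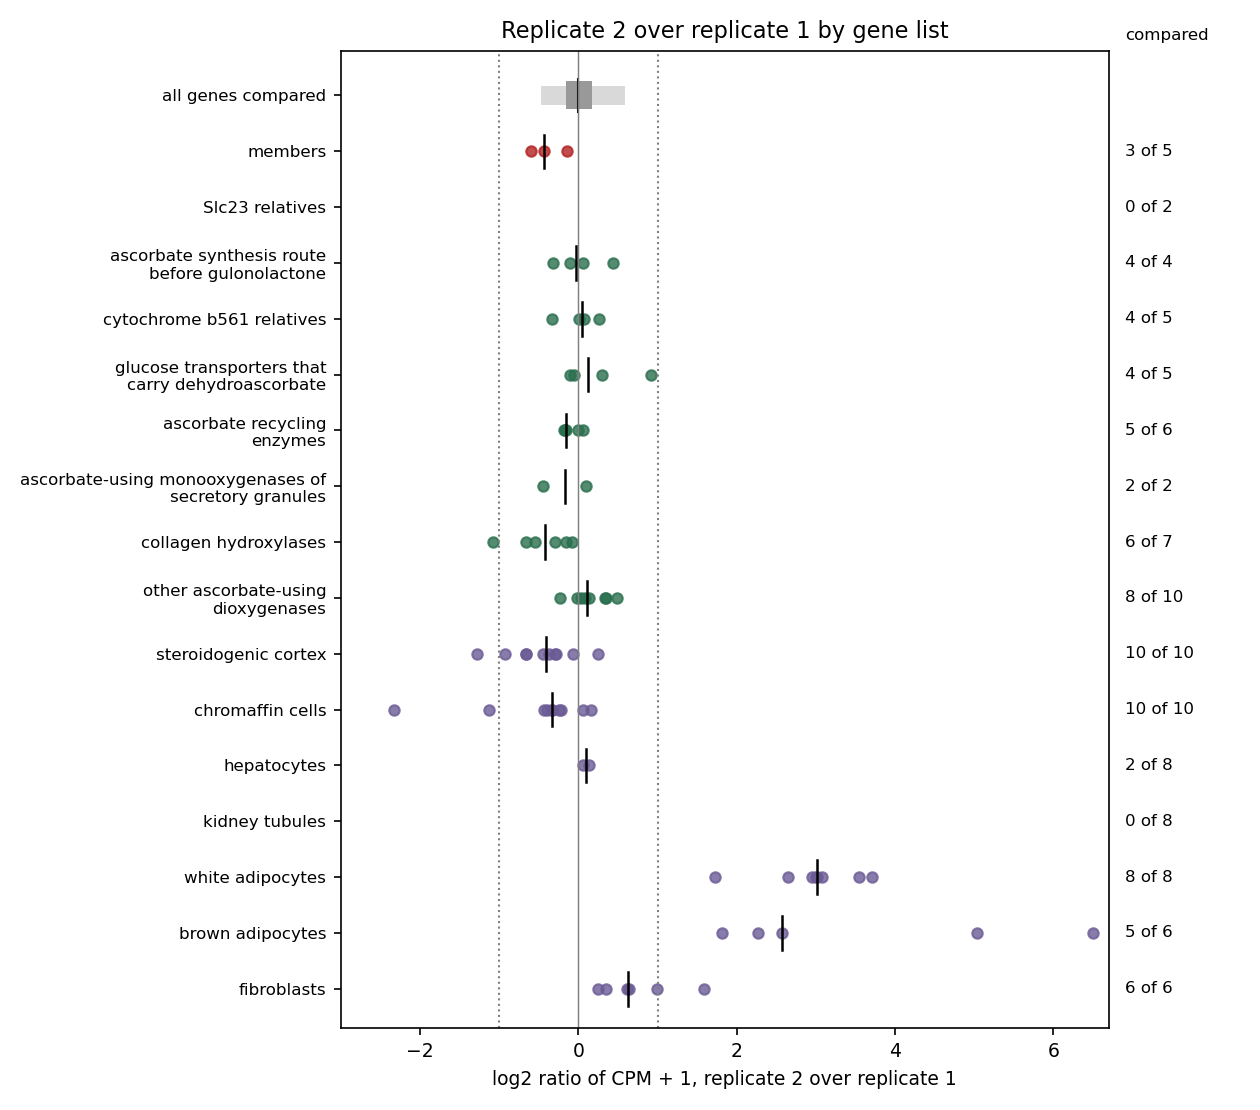
Log2 ratio of CPM + 1, replicate 2 over replicate 1, for each gene compared, by list (members red, related genes green, cell type markers purple), with a black bar at each list's median and the number compared at the right. The top bar spans the 5th to 95th (light) and 25th to 75th percentile (dark) of all 12853 genes, dotted lines mark a 2-fold difference, and the members lie between -0.60 and -0.15 while white adipocyte markers have a median of 3.01.

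The glands also differed in markers of cell types, and these values stand beside the members' ratios without a test of their part in them. Over all 12853 genes compared, 2.39% were higher in replicate 2 and 1.15% lower. Ratios below 0 were held by 6407 of them, or by 4669 with scaling to spike-ins. Both libraries carried the defining genes of the gland. All 10 cortex markers were detected, summing to 18951 TPM in replicate 2 and 22905 TPM in replicate 1, with 9 of 10 ratios below 0 (8 with scaling to spike-ins, Hsd3b1 then lying at 0.0091), a median of -0.41 and 1 gene lower by the rule above (Fdx1, named after its value was seen). Star, which moves cholesterol into mitochondria, had 4897 TPM in replicate 2 and 6855 TPM in replicate 1, and Hsd3b1, a steroid dehydrogenase, 5324 TPM in replicate 2 and 5140 TPM in replicate 1. All 10 chromaffin cell markers were detected, summing to 2707 TPM in replicate 2 and 3695 TPM in replicate 1, with 8 of 10 ratios below 0, a median of -0.33 and 2 genes lower (Th and Pnmt, of catecholamine synthesis, also named after their values were seen). The granule protein gene Chga had 1004 TPM in replicate 2 and 1205 TPM in replicate 1, and Chgb 671 TPM in replicate 2 and 775 TPM in replicate 1.

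Fat cell markers ran the other way. All 8 white adipocyte markers were detected and higher by the rule (2.39% over all genes compared), summing to 1997 TPM in replicate 2 and 227 TPM in replicate 1. Car3, a carbonic anhydrase, had 669.9 TPM in replicate 2 and 46.4 TPM in replicate 1, and Fabp4, a fatty acid carrier, 572 TPM in replicate 2 and 62.1 TPM in replicate 1. The part of fat cells in the higher Slc2a4 counts of replicate 2 was not tested. All 5 brown adipocyte markers compared, of 6, were higher, the list summing to 282 TPM in replicate 2 and 27.0 TPM in replicate 1. Of that list Cox8b, a respiratory chain subunit, had 102 TPM in replicate 2 and 16.2 TPM in replicate 1, and Ucp1, the uncoupling protein, 80.6 TPM in replicate 2 and 0.14 TPM in replicate 1. Of 6 fibroblast markers, all detected, 2 were higher by the rule, the list summing to 243 TPM in replicate 2 and 138 TPM in replicate 1. Dcn, a matrix proteoglycan, had 124 TPM in replicate 2 and 73.3 TPM in replicate 1, and Col1a2, a collagen chain, 34.6 TPM in replicate 2 and 21.4 TPM in replicate 1. In whole-gland RNA, fewer cells of a type and less RNA per cell cannot be told apart, and the part of cell makeup in the lower scaled counts of Slc23a2, Gulo and Cyb561 in replicate 2 was not tested.

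Among nuclear coding genes, those nearest to each detected member in TPM over the 2 libraries were listed by Euclidean distance on the log2 scale. Nearest to Cyb561 were Hmox1, heme oxygenase, at 119.8 TPM in replicate 2 and 121 TPM in replicate 1 (distance 0.0135), and Fgfr2, a fibroblast growth factor receptor, at 120.5 TPM in replicate 2 and 123 TPM in replicate 1 (0.0136). Nearest to Slc23a2 were Mindy1, a deubiquitinase, at 47.2 TPM in replicate 2 and 56.0 TPM in replicate 1 (0.0314), and Mapk13, a p38 kinase, at 47.7 TPM in replicate 2 and 57.9 TPM in replicate 1 (0.0413). Nearest to Gulo were Nutf2, a nuclear import factor, at 10.7 TPM in replicate 2 and 14.8 TPM in replicate 1 (0.0221), and Mafk, a small Maf transcription factor, at 10.7 TPM in replicate 2 and 14.7 TPM in replicate 1 (0.0241). With 2 libraries such a match describes levels in these glands and no shared pattern across conditions.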

How the data were processed

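Total RNA of adrenal gland was sequenced in 2 libraries, 1 animal each, and quantified by the authors 1 library at a time. The deposited gene and transcript tables hold expected counts (estimated counts per gene or transcript, not normalized), TPM and, for transcripts, the share of the gene's TPM in percent, under the column names of RSEM, per the file headers. Beside them stand posterior means and credibility bounds by the authors. Second deposited transcript tables hold estimated counts and TPM under kallisto's column names, per the file headers. A text deposited beside them names mm10 and GENCODE M21. For the aligner and quantifiers, versions are not given in the sources used. The labels' protocols cite a directional library kit.

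From these, TPM were used as deposited. Spike-in, phiX and bare-number entries of the gene tables (0.238% of counts in replicate 2 and 0.243% in replicate 1) were left out of library sizes and gene results. Counts were rounded for folds and scaled with TMM factors (edgeR 4.0.16, R 4.3.3) over genes averaging 10 counts or more. An alternative scaling used size factors from DESeq2 1.42.0. Intervals used scipy 1.17.1. Counting intervals and floors cover counting error only, since no molecular identifiers are named in the labels. With 1 animal on each side of the comparison no p-value was computed. The 5 genes, the 8 lists of 41 related genes and the 7 marker lists were chosen with earlier results of these data known. Of each related list the 3 most abundant genes and any gene counted as differing are named, of each marker list the 2 most abundant, and for each detected member the 2 nearest coding genes. Genes named beyond this rule (Ugp2, Frrs1, Cybrd1, Gsto2, Umod, Slc12a1, Paip2, Clu, P3h1, Gm9910, Gm14051, Egln3) were chosen after their values were seen.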

Additional observations from a re-analysis of the deposited data

Results flagged for a closer look

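In the kallisto-format tables, which the comparisons above use only as an alternative, Slc23a1 carried 2.50 estimated counts in replicate 2 and 7.34 in replicate 1, although the RSEM-format tables list 0 counts in both. The value of replicate 1 lies above the 3 counts set as the floor for a count of 0, and above the exact Poisson bound of 3.69. All of it was assigned to transcript Slc23a1-201, at 0.0688 TPM in replicate 1, and 5.19% of the 31-base words of Slc23a1 are shared with other genes. Which reads these are was not tested.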

How the results depend on the processing

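Of 121 values recomputed with both animals kept, 92 lay within the spread, interval or 1.5-fold limit of the value reported and 29 moved. The 92 are no measure of stability, since some of these limits were wide. List medians were held to the SD over the genes of the list, and none moved by that limit. The 4 values from posterior mean counts were the same as those reported. Of the 92, 5 were medians reported as -0.02 that turned positive: 3 for the enzymes before gulonolactone, as given above, and for all related genes 0.03 with totals and 0.06 with spike-ins. The log2 ratios of the 4 members with reads kept their sign. Scaling to totals gave log2 ratios of -0.38 for Slc23a2 and -0.10 for Cyb561, and scaling to spike-ins -0.35 and -0.065, with Slc2a4 then past 2-fold (1 of 33 related genes higher, beside 2.72% of all genes). The median of all genes was 0.05 with totals and 0.08 with spike-ins. Of 18181 genes of at least 10 counts on average, 865 were higher (4.76%) and 712 lower (3.92%), and of 37 related genes 1 was higher (Gsto2) and 1 lower (P4ha1). At 1.5-fold 795 of 12853 were higher (6.19%) and 501 lower (3.9%), with 2 of 33 related genes higher (Egln3 and Slc2a4), 2 lower (P4ha1 and Plod2) and 1 of 3 members lower (Gulo). Mean TPM over nuclear coding genes only became 324 for Cyb561, 139 for Slc23a2, 34.0 for Gulo and 2.79 for Rgn, since all other entries leave the denominator. By kallisto the means were 110.7 for Cyb561, 38.6 for Slc23a2 and 0.0455 for Slc23a1, the shares 68.1% for Cyb561-201, 18.1% for Cyb561-204, 82.7% for Slc23a2-201 and 3.41% for Slc23a2-203, and Slc23a2 held 98.3% of SLC23 TPM. By posterior mean Cyb561 stood at 119.0 TPM and Slc23a1 at 0.185 TPM, the latter on 0 counts and so resting on no counted reads. The other causes were not tested.

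Leaving out either animal gives the values of the other, as printed for each gene above, and with 2 animals says nothing of stability. No paired analysis was possible because the labels form 1 group. Depth limits Rgn and Slc23a1. The deposited upper bounds of Slc23a1, which rest on no counted reads, were 0.397 TPM in replicate 2 and 0.425 TPM in replicate 1. Those of Rgn were 1.73 TPM in replicate 2 and 0.972 TPM in replicate 1. The glands come from a hybrid cross, and the effect of aligning CAST/EiJ alleles to mm10 on these counts was not tested.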
